A study of Mus musculus with 6 samples.

Results

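Mitochondrial ribosomal protein genes were taken by symbol: protein-coding mouse genes of GENCODE M21 named Mrpl or Mrps followed by a digit. The annotation holds 78 such genes, 49 of the large subunit (Mrpl) and 29 of the small subunit (Mrps). Of these, 76 are among the 12149 genes of the expression table, 47 large and 29 small, and Mrpl33 and Mrpl53 were not analysed here. Each of the 6 libraries is 1 mouse blastocyst on the C57BL/6 background, at embryonic day 3.5. The embryos of both groups had been injected as C57Bl/6J zygotes with small RNAs of sperm at 2 ng/µl and were collected about 96 h later. In the Ctl group (3 embryos) the small RNAs came from normal males, and in the Dep group (3 embryos) from males with a depressive state induced by stress. No uninjected embryo is among these samples, so Ctl embryos carry an injection too. As the labels give no parents, sperm donors or injection days, a p-value measures only the spread between these embryos.

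The mitochondrial ribosome translates the messenger RNAs of the mitochondrial genome, which encode core subunits of the respiratory chain and of ATP synthase. Its ribosomal RNAs are made inside the organelle, whereas all of its proteins are encoded in the nucleus, made in the cytosol and imported. Many of these proteins descend from bacterial ribosomal proteins, and many others exist only in mitochondria. The early embryo divides with the mitochondria it inherited from the oocyte, and the blastocyst is the stage at which oxidative metabolism increases.

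The members had higher means in Dep more often than the genes of the table as a whole, but no member passed the test, and the high levels were in 2 of the 3 Dep embryos, Dep 1 and Dep 2. The log2 fold (Dep minus Ctl, on log2 of normalized count + 1) was above 0 for 66 of 76 members, 40 of 47 large and 26 of 29 small, against 48.2% of all genes. Its median was 0.17 over large subunit genes and 0.25 over small subunit genes, against -0.02 over all genes. Other genes of the members' coding length and mean count shared part of the difference in single embryos. Over 4 classes of length their median log2 difference from the Ctl mean was 0.114 to 0.581 in Dep 1. It was -0.148 to 0.164 in Dep 2 and -0.277 to -0.025 in Dep 3. None of the 76 members had an adjusted p under 0.05 in limma with Benjamini-Hochberg adjustment, as was the case for 0% of all genes, and the adjusted p was 0.9997 for each member. At an unadjusted limma p under 0.05 stood 0 of 76 members and 1.85% of all genes. The quasi-likelihood test of edgeR and DESeq2, run on recovered reads, also had 0 members at an adjusted and 0 at an unadjusted p under 0.05. Among all genes edgeR had 0% under 0.05 adjusted and 1.74% unadjusted, and DESeq2 had 0.00823% and 2.30%.

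The embryos of the Dep group differed among themselves in these genes. The median SD of the log2 level within Dep was 0.529 over members, not above the 0.568 over all genes, which were not matched for level. In Dep 1 a member exceeded all 3 Ctl embryos in 68 of 76 cases, against 30.9% of all genes. For Dep 2 this held for 39 of 76 members, against 26.8% of all genes. Dep 3 was the opposite: 4 of 76 members lay above all Ctl embryos, against 26.4% of all genes, and 37 lay below all of them, against 24.8%. Dep 1 was the highest of the 6 embryos in 52 members (24.3% of all genes) and Dep 3 the lowest in 37 (15.4% of all genes). The median log2 difference from the Ctl mean in the large subunit was 0.55 in Dep 1, 0.32 in Dep 2 and -0.25 in Dep 3. In the small subunit it was 0.63, 0.26 and -0.17 in the same order. Over all genes these medians were -0.01, 0.03 and 0.03. Both subunits thus had the same order of Dep embryos, with Dep 1 on top and Dep 3 at the bottom.

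**Figure D1:**
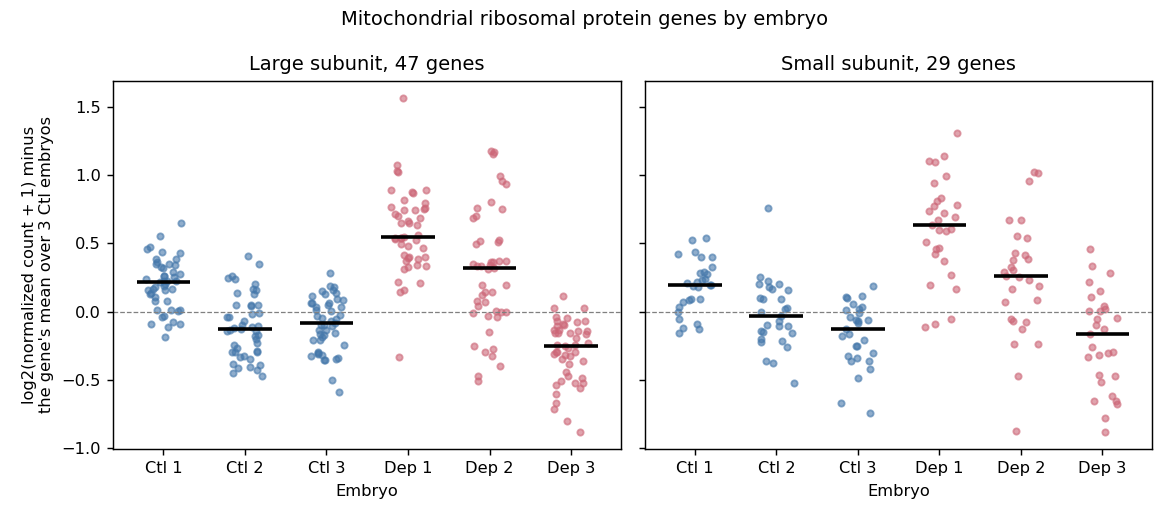
Log2(normalized count + 1) of each member minus that gene's mean over the 3 Ctl embryos (y axis) in each embryo (x axis), large subunit on the left and small subunit on the right; points are genes and black bars are medians over genes. The medians of Dep 1 are 0.55 and 0.63 and those of Dep 3 are -0.25 and -0.17, so the 3 Dep embryos do not move as a group.

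Without Dep 1 the picture changed. Of the 76 members 40 then had a log2 fold above 0 (23 large, 17 small), against 51.9% of all genes, and the medians were -0.018 for the large and 0.055 for the small subunit. Without Dep 3, 72 of 76 had one above 0, against 47.5% of all genes, and the medians were 0.429 and 0.423. The large subunit median was 0.272 without Ctl 1, and the small subunit median was 0.135 without Ctl 3. With Dep 3 left out, 7 members had an unadjusted p under 0.05, namely Mrpl22, Mrpl24, Mrpl38, Mrpl39, Mrpl55, Mrpl58 and Mrps22, against 4.74% of all genes, and their adjusted limma p was 0.8378.

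As a share of the reads in listed genes, the 76 members together took 0.931%, 0.829% and 0.850% in the Ctl embryos 1 to 3 and 1.14%, 1.06% and 0.815% in the Dep embryos 1 to 3. Dep 1 and Dep 2 were above every Ctl embryo and Dep 3 was below every one. The mean share was 0.870% ± 0.0536 for Ctl embryos and 1.005% ± 0.169 for Dep embryos (SD over 3 embryos each). Large and small subunit genes kept similar proportions: the summed normalized counts of the large subunit were 1.97, 1.85 and 1.95 times those of the small subunit in Ctl 1 to 3, and 1.82, 1.90 and 1.77 times in Dep 1 to 3. The 2 groups overlapped in this ratio. In whole embryos, fewer cells of a type and less RNA per cell cannot be told apart.

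Depth was similar between the libraries, with 16543356 to 21548220 reads in listed genes, and a member had 202 to 7974 reads per library (median 2002). The Dep 1 library differed from the rest: 691 of the listed genes had 0 reads there, and 5 to 106 in any other library. The blastocyst consists of trophectoderm, epiblast and primitive endoderm, and their markers varied between the embryos. All 7 epiblast markers were measured, and their summed normalized counts ranged from 7045 to 10301 in Ctl and from 5710 to 12769 in Dep, lowest in Dep 1. Nanog, Sox2, Fgf4, Klf2, Tdgf1 and Esrrb were each below every Ctl embryo in Dep 1, and Pou5f1 lay within the Ctl range. Tdgf1 was at 17 there, against 881 to 1240 in Ctl, and Esrrb at 36.4, against 98.2 to 281. The mean log2 level of this list was 6.78 in Dep 1 and 9.02, 9.74 and 9.31 in Ctl 1 to 3. Dep 2 and Dep 3 lay within the Ctl range in this mean. The 8 trophectoderm markers summed to between 46727 and 72154 in Ctl and between 40455 and 102470 in Dep, highest in Dep 1. Most of the sum in Dep 1 came from Krt8 (34040) and Krt18 (47707). Cdx2, Gata3 and Eomes were also highest in Dep 1, Elf5 and Krt7 lay within the Ctl range, and Tfap2c (2204) was lowest. Of the 8 primitive endoderm markers 7 were in the table, with sums of 19799 to 23046 in Ctl and 19530 to 25494 in Dep. In Dep 1 the primitive endoderm markers Gata4, Sox17 and Sox7 and the epiblast marker Fgf4 were at 0. Gata6 was the lowest of all embryos there, with 3069 against 5181 to 6402 in Ctl. Dab2 was highest in Dep 1 with 22085, which was most of the primitive endoderm sum in that embryo. Cubn (268) and Pdgfra (71.6) lay within the Ctl range there. The mean log2 level of the primitive endoderm list was 5.75 in Dep 1 and 9.045, 9.74 and 6.23 in Ctl 1 to 3. Dep 2 and Dep 3 lay above every Ctl embryo in this mean. Ctl 3 was low in part of the primitive endoderm list too, with Gata4 at 0, Sox17 at 0.883, Sox7 at 9.71 and Pdgfra at 41.5. Fgf4 was not low there (173). The part of these differences in the member values was not tested. Of the markers of cumulus and granulosa cells, blood and fibroblasts (9, 4 and 5 genes) 0 were in the table.

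Promoter sequences show which motifs the members share. The sequences come from RefSeq on GRCm38.p6, 250 bases before to 50 after a start site, and 67 of 76 members matched the table. Motifs known from nuclear genes of mitochondrial proteins were searched on both strands. The ETS motif CCGGAAG, bound by factors such as GABPA, was in 24 of 67 members (35.8%), in 21.4% of the listed genes and in 9.93% of all genes of the promoter table. The YY1 motif AAGATGGC was in 12 members (17.9%), in 5.66% of the listed and 3.19% of all genes. The core GCGCATG of the NRF1 motif was in 7 members (10.4%), in 8.54% of the listed and 4.41% of all genes. The full NRF1 form, which is this core followed by CGC and so always contains it, was in 3 members (4.48%), in 2.55% of the listed and 1.07% of all genes. None of the ETS, YY1 and NRF1 core motifs was in 31 members, and 7 held at least 2 of them. To show where such motifs lie, stretches of 120 bases upstream of exons are given for 3 members described below, with motifs in capitals. Mrpl22 (chr11:58171541-58171660, plus strand) holds an ETS and an NRF1 core motif, Mrps18a (chr17:46110866-46110985, plus strand) and Mrpl58 (chr11:115403632-115403751, plus strand) an ETS motif. A match describes letters and not binding.
Mrpl22: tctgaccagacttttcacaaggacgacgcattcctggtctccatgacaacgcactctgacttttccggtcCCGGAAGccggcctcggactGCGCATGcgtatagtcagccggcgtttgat
Mrps18a: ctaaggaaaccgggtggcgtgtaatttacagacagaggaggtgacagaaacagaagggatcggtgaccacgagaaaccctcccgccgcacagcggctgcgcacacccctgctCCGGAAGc
Mrpl58: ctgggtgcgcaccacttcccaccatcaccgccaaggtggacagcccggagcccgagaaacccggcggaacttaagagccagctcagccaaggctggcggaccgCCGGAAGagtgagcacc

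Among large subunit genes, those of smallest unadjusted p were Mrpl38, Mrpl55, Mrpl39, Mrpl24, Mrpl58 and Mrpl22. Mrpl38 (chr11:116131817-116138868 on GRCm38, 9 exons), a protein found only in mitochondrial ribosomes, had normalized counts of 982, 1044 and 1361 in Ctl 1 to 3 and 1882, 2524 and 1068 in Dep 1 to 3. Dep 1 and Dep 2 were above all Ctl embryos and Dep 3 lay among them. The log2 fold was 0.62 ± 0.35 (SE), with an unadjusted limma p of 0.105. Mrpl55 (chr11:59202486-59206134), likewise specific to mitochondria, had 1856, 1631 and 1808 in Ctl and 3274, 3073 and 1683 in Dep. Again Dep 1 and Dep 2 were high and Dep 3 was within the Ctl range, and the log2 fold was 0.54 ± 0.31. Mrpl39 (chr16:84717576-84735742), whose protein resembles a threonyl-tRNA synthetase, had 1073, 1258 and 631 in Ctl and 1936, 2137 and 886 in Dep. Its log2 fold of 0.70 ± 0.40 was the highest of all members. It was 0.54 without Dep 1, and Ctl 3 was the lowest embryo.

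The exit tunnel is the channel through which the growing chain leaves the large subunit. All 6 genes listed for it (Mrpl17, Mrpl22, Mrpl23, Mrpl24, Mrpl45 and Mrpl47) had a log2 fold above 0, with a median of 0.20, and 0 passed the test. Mrpl22 (chr11:58171661-58179565, 7 exons) had normalized counts of 2669, 1854 and 1728 in Ctl and 2936, 4073 and 1789.8 in Dep. Dep 2 stood out, Dep 1 was little above Ctl 1, and Dep 3 was within the Ctl range. Mrpl24 had 871, 892 and 649.6 in Ctl and 1332, 1542 and 726 in Dep, a log2 fold of 0.52 ± 0.35. Its exons overlap Rrnad1, and the library kit does not mark strand, so reads of the shared stretch cannot be assigned.

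Mrpl58 is a peptidyl-tRNA hydrolase that frees stalled ribosomes and is also a fixed part of the large subunit. It had normalized counts of 1593, 1217 and 1208 in Ctl and 2458, 2534 and 1060.1 in Dep. Dep 1 and Dep 2 lay above every Ctl embryo and Dep 3 below every one, and the log2 fold was 0.50 ± 0.36. The 3 genes of the stalk, which recruits translation factors, differed from each other in Dep. Mrpl10, the base of the stalk, had 1668, 2134 and 1579 in Ctl and 2065, 3956 and 1685 in Dep, so that only Dep 2 exceeded the Ctl embryos. Mrpl12 was nearly equal in Ctl (2177, 2138 and 2167) and spread in Dep (3021, 2699 and 1963). Mrpl11 had a log2 fold of 0.00 ± 0.31, with Dep 1 highest at 3141 and Dep 3 lowest at 1513.

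Small subunit genes included the only members whose groups did not overlap, Mrps5 and Mrps26, 2 of 76 against 6.90% of all genes. Mrps5 (chr2:127587222-127606829, 12 exons), a relative of a bacterial protein near the decoding site, had normalized counts of 1064, 948 and 810.2 in Ctl and 1284, 1224 and 1287 in Dep. All Dep embryos were above all Ctl embryos, and they lay closer together (SD 35.3) than the Ctl embryos (SD 127). The log2 fold was 0.44 ± 0.27 with an unadjusted limma p of 0.138, and it was 0.42 without Dep 1. Mrps26 (chr2:130563742-130568695), specific to mitochondria, had 2311, 2758 and 2669.8 in Ctl and 3551, 3078 and 2991 in Dep. Its log2 fold was 0.31 ± 0.24, and the gap between Dep 3 and Ctl 2 was smaller than the SD of either group (236 in Ctl, 301 in Dep). Both are among the 4 members in which Dep 3 was above all Ctl embryos, the others being Mrps2 and Mrps27.

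Mrps24, a relative of the bacterial protein at the messenger RNA entry, had normalized counts of 5189, 4252 and 5265 in Ctl and 8404, 6501 and 5019 in Dep. Dep 1 and Dep 2 were high and Dep 3 lay within the Ctl range. Its log2 fold was 0.41 ± 0.27, and its exons overlap Urgcp. Mrps23, specific to mitochondria, had 2435, 2390.4 and 1656 in Ctl and 3235, 3382 and 2131 in Dep, a log2 fold of 0.42 ± 0.29. Dep 1 and Dep 2 were above every Ctl embryo, and Dep 3 was not. Mrps35, also specific to mitochondria, had 1462, 1464 and 1007 in Ctl and 2761, 1538 and 1394 in Dep. Here Dep 1 alone was far from the rest, and the log2 fold was 0.49 ± 0.33 with it and 0.18 without it. Mrps25 had 1272, 1018 and 875 in Ctl and 1739, 1272 and 1058 in Dep, again with Dep 1 highest.

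The paralogs Mrps18a, Mrps18b and Mrps18c are variants of 1 bacterial protein, and the Mrps18a protein sits in the large subunit despite its name. Mrps18a had normalized counts of 3329, 2419 and 2808 in Ctl and 4032, 3555 and 2287 in Dep. Mrps18b had 1389, 1581 and 1061 in Ctl and 1489.7, 1784 and 774 in Dep. Mrps18c had 2032, 1176 and 1449 in Ctl and 3008, 1383 and 959 in Dep. In each paralog Dep 3 was the lowest embryo, but the highest was Dep 1 in Mrps18a and Mrps18c and Dep 2 in Mrps18b. Their log2 folds were 0.18 ± 0.29, -0.06 ± 0.36 and 0.07 ± 0.41. Exons of Mrps18b and Mrps18c overlap other gene models (Gm16279 and Gm43511).

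**Figure D2:**
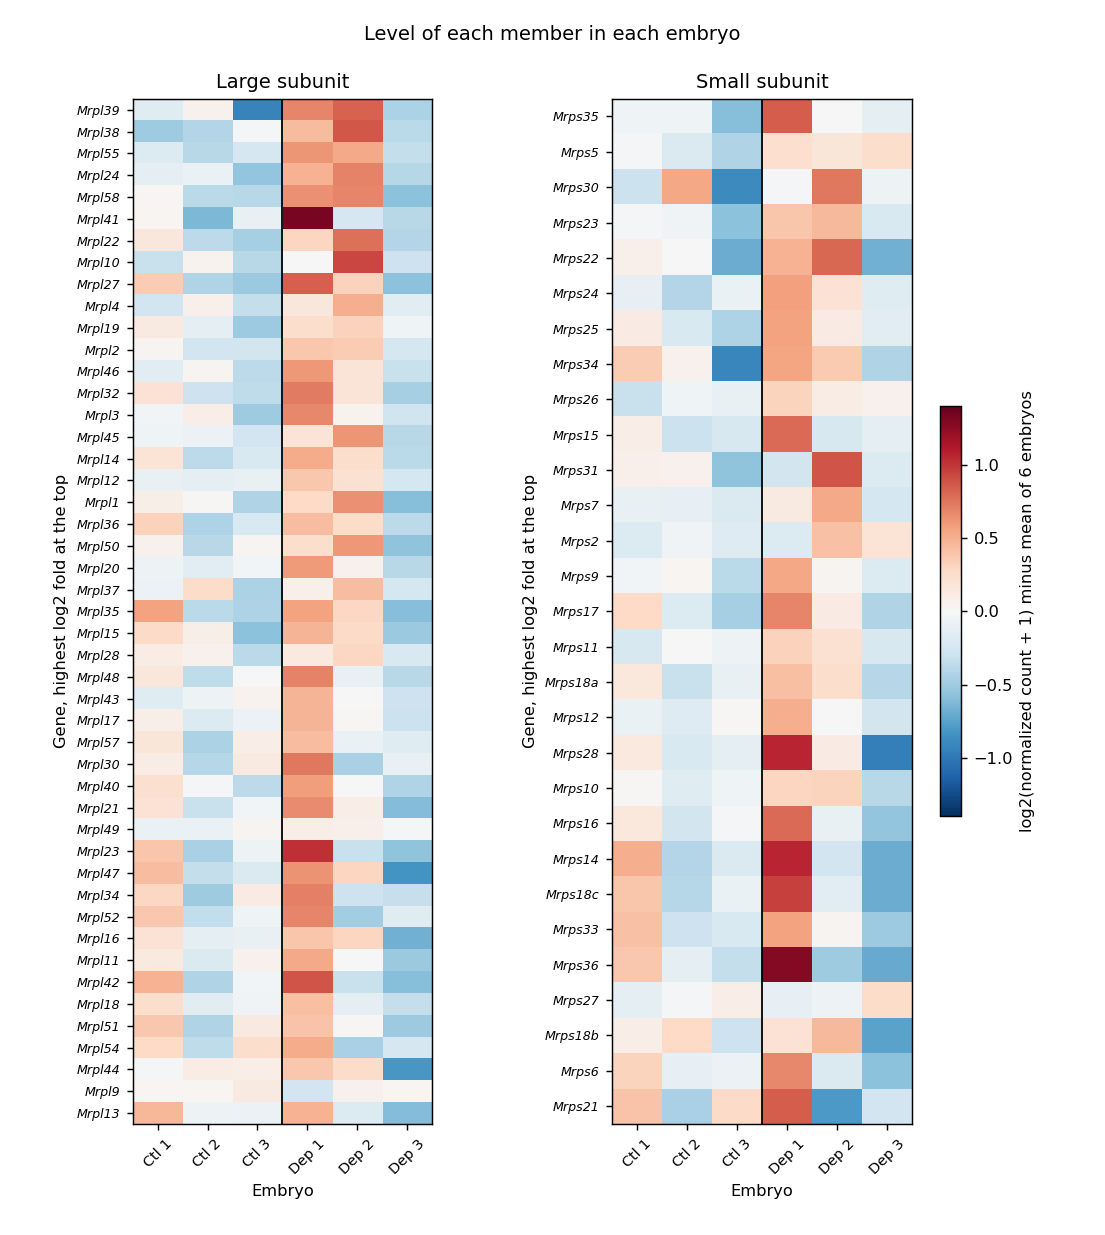
Level of each member (rows, large subunit left, small subunit right, ordered by log2 fold) in each embryo (columns), as log2(normalized count + 1) minus the mean of the 6 embryos; red is above and blue below that mean, and the black line parts Ctl from Dep. Dep 1 is the highest embryo in 52 of 76 rows and Dep 3 the lowest in 37.

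Members with bacterial relatives and those specific to mitochondria did not part clearly. In the large subunit 25 of 28 genes with a bacterial homologue had a log2 fold above 0 (median 0.18), and 15 of 19 specific to mitochondria (median 0.13). In the small subunit these were 14 of 16 (median 0.19) and 9 of 10 (median 0.32). Mrps18b, described above as a variant of a bacterial protein, was counted here as specific to mitochondria. It was the 1 gene below 0 in that class, so these counts depend on where it is placed. None of these genes passed the test in either direction, and the differences between the classes were not tested. Mrps18a, Mrps30 and Mrps36 are in no class. The 5 mitoribosome proteins with other symbols (Dap3, Chchd1, Ptcd3, Aurkaip1 and Gadd45gip1) all had a log2 fold above 0, with a median of 0.26, and 0 passed the test. Dap3, a GTP-binding protein of the small subunit, had 2029, 2784 and 1295 in Ctl and 3501, 3246 and 1786 in Dep. Ptcd3, which binds RNA on the small subunit, had 1949, 2223 and 1229 in Ctl and 2462, 2783 and 2036 in Dep. Both were above all Ctl embryos in Dep 1 and Dep 2 and within the Ctl range in Dep 3, like many members.

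A lower mean log2 level in Dep was found for 10 members: Mrpl9, Mrpl13, Mrpl18, Mrpl42, Mrpl44, Mrpl51, Mrpl54, Mrps6, Mrps18b and Mrps21. The lowest log2 fold was that of Mrpl13, with -0.21 ± 0.33. Mrpl13 had normalized counts of 3592, 2473 and 2459 in Ctl and 3643, 2283 and 1705 in Dep, so even there Dep 1 was the highest embryo. Mrpl9 was the exception among all members in having Dep 1 lowest (29.2% of all genes), with 1892, 1882 and 2023 in Ctl and 1532, 1932 and 1883 in Dep. Mrpl49, a protein specific to mitochondria, hardly varied, with 2321, 2323 and 2529 in Ctl and 2635, 2594 and 2430.2 in Dep. At the other end, Mrpl41 had 868, 553 and 794 in Ctl and 2148, 726 and 651 in Dep. Mrps36, whose protein is known as a part of the 2-oxoglutarate dehydrogenase complex, had 726, 511 and 445 in Ctl and 1359.8, 395 and 343 in Dep. In both of these Dep 1 alone lay above the Ctl embryos. Over the 76 members the median SD of the log2 level was 0.268 within Ctl and 0.529 within Dep. Over all genes these medians were 0.403 and 0.568, so the members had the smaller spread in Ctl and no larger one in Dep. The larger SD was in Dep for 67 members, against 67.5% of all genes.

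**Figure D3:**
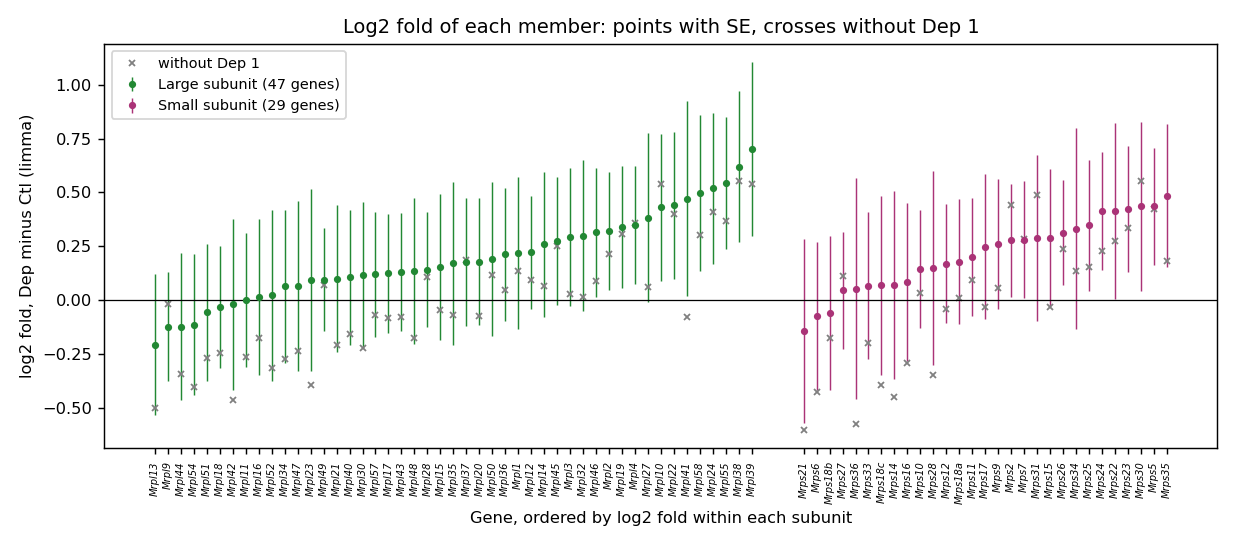
Log2 fold (Dep minus Ctl, limma, y axis) of each member (x axis, ordered within the large subunit in green and the small subunit in purple); dots are folds with bars of 1 SE, and grey crosses are folds without Dep 1. Most dots lie above 0, whereas 40 of 76 crosses do.

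Levels between genes were compared per kilobase of the principal transcript, scaled to the reads in listed genes (FPKM, mean ± SD over 6 embryos). The highest were Mrpl42 with 365 ± 123, Mrpl18 with 326 ± 37.8 and Mrpl36 with 261 ± 50.6 in the large subunit. In the small subunit they were Mrps24 with 313 ± 60.9, Mrps10 with 196 ± 27.8 and Mrps18a with 187 ± 29.4. Between Mrpl42, Mrpl18 and Mrps24, neighbours in this order, the gap was smaller than the larger SD of each pair. Mrpl42 had normalized counts of 5963, 3194 and 4169 in Ctl and 7853, 3433 and 2830.5 in Dep, a log2 fold of -0.02 ± 0.40. Mrpl18, a relative of the bacterial protein that binds 5S ribosomal RNA, had 8630.3, 6509 and 7002 in Ctl and 9681, 6609.7 and 5767 in Dep. Mrpl36, a small zinc-binding protein, had 5447, 3219 and 3763 in Ctl and 5883, 5194 and 3362 in Dep. The Dep values reached both above and below the Ctl values in Mrpl42 and Mrpl18, while in Mrpl36 they went only above. Mrps10 had 3672, 3214 and 3476 in Ctl and 4449.5, 4494 and 2768 in Dep. Its Dep values too reached to both sides of the Ctl values. Exons of Mrpl18 overlap Tcp1 and those of Mrpl36 overlap Ndufs6, and in all 31 of 76 members share exonic bases with another gene.

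The lowest levels in the large subunit were those of Mrpl48 (15.2 ± 3.27 FPKM), Mrpl19 (15.9 ± 2.76) and Mrpl32 (22.2 ± 5.5). In the small subunit they were Mrps25 (10.7 ± 1.89), Mrps5 (13.4 ± 2.60) and Mrps35 (20.6 ± 5.98). The highest member mean was 34.1 times the lowest. Proteins of 1 particle thus differed widely in messenger RNA level per length, with the reservation that other transcripts of a gene have other lengths. Mrpl48 had normalized counts of 1307, 918 and 1170.3 in Ctl and 1892, 1092 and 897 in Dep. In this gene Dep 1 was highest and Dep 3 lowest. Mrpl19 had 1571, 1326 and 1013 in Ctl and 1709, 1809 and 1389 in Dep, where Dep 1 and Dep 2 were highest. Mrpl32, a substrate of the m-AAA protease on its way into the ribosome, had 1373, 979 and 936 in Ctl and 1978, 1361 and 870.5 in Dep. Only Dep 1 lay above all Ctl embryos there.

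The Dep 1 and Dep 2 embryos differed in which members were high. The members were ordered by coding length and split into 4 classes of 19 genes, of 261 to 435, 438 to 588, 600 to 849 and 873 to 1326 bases. In Dep 1 the median log2 difference from the Ctl mean was 0.742 in the shortest class, then 0.604, 0.522 and 0.414 in the longest. In Dep 2 the order ran the other way, with -0.067, 0.186, 0.341 and 0.526. In Dep 3 the values were -0.298, -0.306, -0.192 and -0.065. Over the 76 members, Pearson's r between log2 coding length and this difference was -0.414 in Dep 1 (Spearman's rho -0.386), 0.583 in Dep 2 (0.572) and 0.347 in Dep 3 (0.364). In the large subunit alone r was -0.292, 0.533 and 0.0717 in Dep 1 to 3, and in the small subunit -0.55, 0.667 and 0.585. The relation in Dep 3 was thus nearly absent in large subunit genes. Genes are not independent replicates, each value rests on 1 library and the same Ctl mean, and no p is given. Over 6391 protein-coding genes in the members' range of mean counts, but of any length, r was -0.285, -0.143 and 0.269. Other genes of the members' lengths and counts (348, 425, 769 and 1403 genes in the 4 classes) had medians of 0.581, 0.345, 0.251 and 0.114 in Dep 1. Their medians were -0.148, 0.045, 0.160 and 0.164 in Dep 2 and -0.277, -0.218, -0.139 and -0.025 in Dep 3. From the shortest to the longest class these ran in the same direction as the members' in each Dep embryo. Coding length thus moved with the values of other genes too in all 3 Dep embryos, and its part in the member values was not tested.

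**Figure D4:**
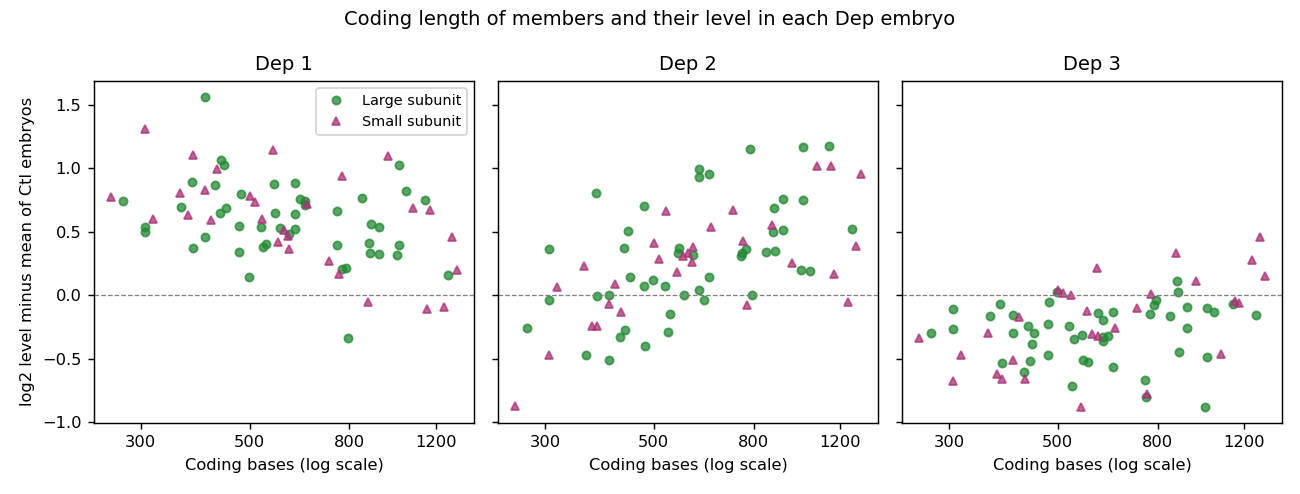
Coding bases of each member (x axis, log scale) against its log2 level in 1 Dep embryo minus the mean of the Ctl embryos (y axis), 1 panel per Dep embryo; circles are large and triangles small subunit genes. Over all members the slope is downward in Dep 1 (r = -0.414) and upward in Dep 2 (r = 0.583) and Dep 3 (r = 0.347). In Dep 3 r is 0.0717 in large and 0.585 in small subunit genes.

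Many members share a start region with a neighbour on the other strand. A protein-coding neighbour starting within 1000 bases in the opposite direction was annotated for 33 of 76 members (43.4%), against 17.1% of 11147 listed protein-coding genes. Of these neighbours 29 were in the table, and 18 had a log2 fold above 0 and 11 below, against 48.2% of all genes above 0. Their median was 0.031, against 0.131 for the 29 members beside them. In Dep 1, 26 of these 29 members but 11 of 29 neighbours exceeded all Ctl embryos, against 30.9% of all genes. One pair consists of 2 members, Mrpl46 of the large and Mrps11 of the small subunit on chromosome 7, whose starts are 412 bases apart. Each of these 2 is counted above both as a member and as a neighbour. Mrpl46 had normalized counts of 1959, 2241 and 1690.1 in Ctl and 3312, 2471 and 1746 in Dep. Mrps11 had 1178, 1369 and 1314 in Ctl and 1718, 1591 and 1177 in Dep. Both were highest in Dep 1 and next in Dep 2, and as their exons overlap, part of their reads cannot be told apart.

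Genes that work with the mitochondrial ribosome had varied profiles. Assembly factors, which modify ribosomal RNA and join the subunits' parts, had a log2 fold above 0 in 21 of 25 genes, with a median of 0.27, and 0 of 25 passed the test. Without Dep 1 this median was 0.34 and 19 of 25 were above 0. At an unadjusted limma p under 0.05 stood 3 of the 25 (Ddx28, Mtg1 and Mrm3), against 1.85% of all genes. Ddx28, an RNA helicase of large subunit assembly, had normalized counts of 172, 184 and 109 in Ctl and 529, 363 and 254 in Dep. Its groups did not overlap, the log2 fold was 1.27 ± 0.47 with an unadjusted limma p of 0.0215, and the adjusted limma p was 0.9997. Mtg1, a GTPase of the same pathway, had 587, 815 and 609 in Ctl and 1170.4, 1764 and 864 in Dep, a log2 fold of 0.87 ± 0.34. All Dep embryos were above all Ctl embryos here as well, Dep 3 by the least. The groups did not overlap in 6.90% of all genes. Ddx28 and Mtg1 were named for the smallest unadjusted p of their list, which favours such genes.

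Translation factors had a log2 fold above 0 in 12 of 14 genes (median 0.19). Mtif2 and Tufm were likewise named for the smallest unadjusted p of their list. Mtif2, the initiation factor, had 863, 736 and 949.7 in Ctl and 1152, 1336 and 993 in Dep. Its groups did not overlap, as in 6.90% of all genes. Tufm, the elongation factor that brings tRNA to the ribosome, had 1756, 1844 and 1044 in Ctl and 2245, 2218 and 1661 in Dep, where Dep 3 lay within the Ctl range. Their log2 folds were 0.45 ± 0.28 and 0.43 ± 0.31. Mitochondrial tRNA synthetases had a log2 fold above 0 in 11 of 17 (median 0.11). Protein import genes had one above 0 in 19 of 25 (median 0.14), genes of mitochondrial DNA replication and transcription in 6 of 13 (median -0.09) and regulators of nuclear mitochondrial genes in 1 of 8 (median -0.17). None of the genes in these 5 lists passed the test in either direction. The transcripts of the mitochondrial genome itself lay the other way. All 13 protein genes had a log2 fold below 0 (median -0.68), as had both ribosomal RNAs (median -0.83), and 0 passed the test. The mean log2 level of the 13 was 14.24, 12.83 and 13.90 in Ctl 1 to 3 and 13.32, 12.53 and 13.02 in Dep 1 to 3. The groups thus overlapped, with Ctl 2 below Dep 1 and Dep 3. At an unadjusted limma p under 0.05 stood 0 of the 13 and 0 of the 2. With the replicate number as a block 9 of the 13 and both ribosomal RNAs stood there, against 3.46% of all genes. In that fit 0 genes had an adjusted p under 0.05. The block was chosen because same-numbered embryos deviated together in these same data, and the labels state no pairing. These counts are thus no separate support for a difference, and transcripts of 1 genome are not independent of each other. The kit primes cDNA on poly(A), so ribosomal RNA is measured only in part. The ribosomal RNA of the large subunit, mt-Rnr2, had normalized counts of 10419, 3829 and 12623 in Ctl and 10703, 1833 and 4521 in Dep. In the small subunit, mt-Rnr1 had 1692, 587 and 1507 in Ctl and 1566, 261 and 646 in Dep. For both RNAs Dep 1 lay within the Ctl range, Dep 2 was the lowest embryo and Ctl 2 the next. Dep 1 and Dep 2, in which the nuclear members were high, thus differed in the measured level of these RNAs.

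**Figure D5:**
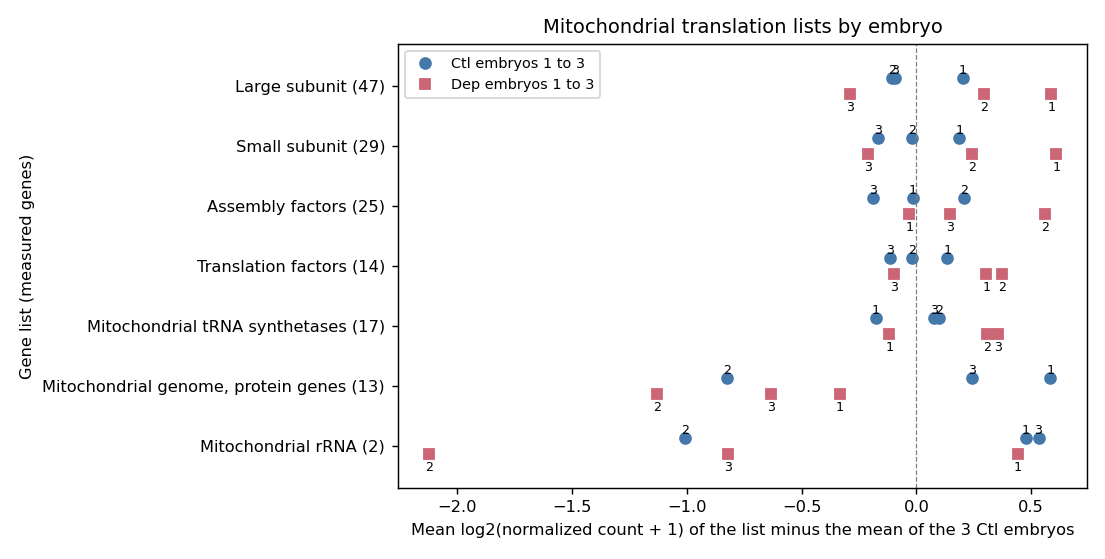
Mean log2(normalized count + 1) of a gene list minus the mean of the 3 Ctl embryos (x axis) for 7 lists of mitochondrial translation (y axis); blue circles are Ctl and red squares Dep embryos, with the embryo number beside each. Dep 3 is lowest in both subunits, while Dep 2 is lowest in mitochondrial rRNA.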

How the data were processed

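Single blastocysts were lysed and their cDNA was made with a SMART-Seq v4 low-input kit, per the labels' protocols; it does not mark strand. Per its values, the signal that the authors deposited for a gene and library is a number of reads over that library's size factor (normalized count). Per the file headers they also deposited a log2 fold change with its SE, a test statistic (score) and p-values under the names of a DESeq2 table, which were not used for the values printed here. HISAT2, Cufflinks 2.2.1 and mm10 appear, with no role, in the submitters' processing notes. Which program counted reads, and over which annotation, is not given in the sources used here. Genes of low count had been left out before deposit (lowest mean 14.2).

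GENCODE M21 (GRCm38, which mm10 names) held 11829 of the 12149 identifiers and lacked 320. Dividing by the smallest step gave whole reads for 100% of values within 0.01. Dep 2 has a step of 0.993, close to 1, and was read as scaled because the other columns are. The test planned for normalized values was used: limma 3.58.1 with a mean-variance trend on log2(normalized count + 1), fitted over all genes, Benjamini-Hochberg adjustment, threshold 0.05. This scale understates changes of low genes. edgeR 4.0.16 and DESeq2 1.42.0 (R 4.3.3) on recovered reads were alternatives. Tables were made with Python 3.11.15. As the kit's use of molecular identifiers is not described, reads cannot be taken as independent molecules. By chi-square tests of their reads no library repeats another of its group, and pairs across the groups were not tested.

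Members, lists and the naming rule were chosen with earlier results of these data known. Per subunit the rule took the 6 genes of smallest unadjusted p and the 3 highest and 3 lowest per kilobase. It also took genes whose groups do not overlap and the Mrps18 paralogs. From each other list of mitoribosome proteins, assembly factors and translation factors it took the 2 genes of smallest unadjusted p. Mrpl9 to Mrpl13, Mrpl41, Mrpl46, Mrpl49, Mrps11 and Mrps36 were named after their values were seen. Embryos with the same number deviated together from their group means (r = 0.133, 0.151 and 0.129 across genes), and the number was therefore treated as a pairing in 1 alternative. The labels state no such pairing, and the 3 correlations are not independent of each other.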

Additional observations from a re-analysis of the deposited data

How the results depend on the processing

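No alternative gave a member an adjusted p under 0.05. The median log2 fold of the large subunit was 0.171 and ranged from -0.018 to 0.429 when 1 embryo was left out, and that of the small subunit was 0.249 and ranged from 0.055 to 0.423. The value of -0.018, without Dep 1, was the only reversed sign. The lowest values in settings that kept all embryos were 0.120 (large) and 0.170 (small). DESeq2 on recovered reads called 1 of all 12149 genes, against 0 in limma and in edgeR. With the replicate block the medians stayed at 0.171 and 0.249, 0 genes had an adjusted p under 0.05, and 1 member, Mrpl39, was under 0.05 before adjustment, against 3.46% of all genes. Library weights gave Dep 1 a weight of 0.314 and left 33 of 47 and 22 of 29 members above 0, against 49.4% of all genes, and Mrpl38 was under 0.05 before adjustment, as were 399 of all 12149 genes. Quantile normalization left 35 and 24 above 0, against 49.9% of all genes, and scaling to nuclear genes 37 and 26, against 44.6%. Counting Mrps18a and Mrps30 with the large subunit gave 0.177 and 0.249, and adding proteins with other symbols 0.163 and 0.259. With 3 embryos a group the SE of a member's log2 fold was 0.24 to 0.51, on 202 to 7974 reads per member and library.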
